A study of Sus scrofa with 8 samples.

Results

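Of the enzymes that turn squalene into cholesterol, 9 were followed here in the livers of pigs before and after a steatotic diet. They are SQLE, LSS, CYP51, TM7SF2, MSMO1, NSDHL, EBP, SC5D and DHCR7, taken by gene symbol in the order of the pathway, and they are 9 of the 18103 genes listed. Expression was given as FPKM, fragments per kilobase of transcript scaled to the mapped fragments of the library, so that levels of different genes can be compared per length. Hepatic poly-A RNA was sequenced in 8 libraries, 4 of the initial state and 4 of steatosis, and each library was a pool of 2 pigs.

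All animals were male Landrace x Large White pigs. The initial group was aged 4 months and was labelled healthy, and its tissue was taken by laparotomy. The steatosis group was aged 6 months and had eaten for 2 months a diet rich in saturated fat, fructose, cholesterol and cholate and poor in methionine and choline, and its tissue was taken at euthanasia. Both groups were the same animals, sampled after an overnight fast, and the pools carry the numbers 1 to 4 in each group. Age, the way of sampling and the diet changed together and cannot be told apart. Because pools were sequenced, every SD below is a spread between pools of 2 pigs and not between single animals.

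Cholesterol is made from acetyl-CoA through mevalonate and squalene. SQLE adds oxygen to squalene, LSS closes the rings to form lanosterol, and the later enzymes remove methyl groups and move or reduce double bonds until cholesterol is reached. The liver is a main site of this synthesis. When sterol in the endoplasmic reticulum is low, SCAP carries the transcription factor SREBP2 to the Golgi for cleavage and the genes of the pathway are transcribed, and when sterol is high INSIG proteins hold SCAP back.

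The libraries were liver by their markers: the 10 hepatocyte genes (ALB, TTR, APOA1 and others) summed to between 64981 and 97398 FPKM in the initial pools and to between 59044 and 70120 in steatosis, with 0 of 10 called as changed by limma, 5 of 10 at an unadjusted p under 0.05 and 2 of 10 at an adjusted p under 0.05 (FGB lower, TF higher). The share of all genes at an unadjusted p under 0.05 was not counted, here or for the lists below. At an adjusted p under 0.05 it was 2.28% lower and 26.7% higher. Of the 10 macrophage genes 3 were called higher in steatosis and 0 lower, where 6.01% of all genes were called higher (the rule is given below). At an adjusted p under 0.05 there were 6 higher and 0 lower, and at an unadjusted p under 0.05 there were 7 higher and 1 lower. The sum of the 10 went from between 876 and 1112 FPKM to between 1150 and 1306. Initial pool 1 stood apart, with 2586 FPKM summed over 7 skeletal muscle genes, against 0.82 to 18.9 in the other initial pools and at most 0.35 in steatosis, and with 1543 FPKM over 7 stomach mucosa genes, against 6.28 to 29.2 in the other initial pools. The main results are also given without pool 1 of either group. In bulk RNA fewer cells of a type and less RNA per cell cannot be told apart. Depth was similar: from the step between low FPKM values the shallowest library reached 89.6% of the deepest.

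The 9 enzymes followed here were lower in steatosis. A gene was called where its limma adjusted p was under 0.01 and its log2 fold change exceeded 1 in size. By this rule 6 of the 9 were lower (SQLE, CYP51, TM7SF2, MSMO1, EBP and SC5D) and 0 were higher. Over all 13175 genes tested 0.334% were called lower (44 genes, 6 of them these enzymes) and 6.01% were called higher. LSS and NSDHL passed the limit on p and missed the limit on size. At an adjusted p under 0.05 with no limit on size all 9 were lower and 0 were higher, where 2.28% of all genes were lower and 26.7% were higher. In 8 of the 9 every steatosis pool lay below every initial pool, which held for 2.53% of all genes, and DHCR7 was the exception. All 9 passed the filter on low values, which required 0.3 FPKM in 4 of the 8 libraries. The median log2 fold change of the 9 was -1.60, against 0.25 over all genes tested. With libraries scaled by their median ratio the median of all genes was -0.01 and that of the enzymes -1.88. Under that scaling 7 enzymes were called lower, against 0.63% of all genes. LSS and NSDHL then passed both limits and SQLE missed, with a limma adjusted p of 0.0107.

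**Figure D1:**
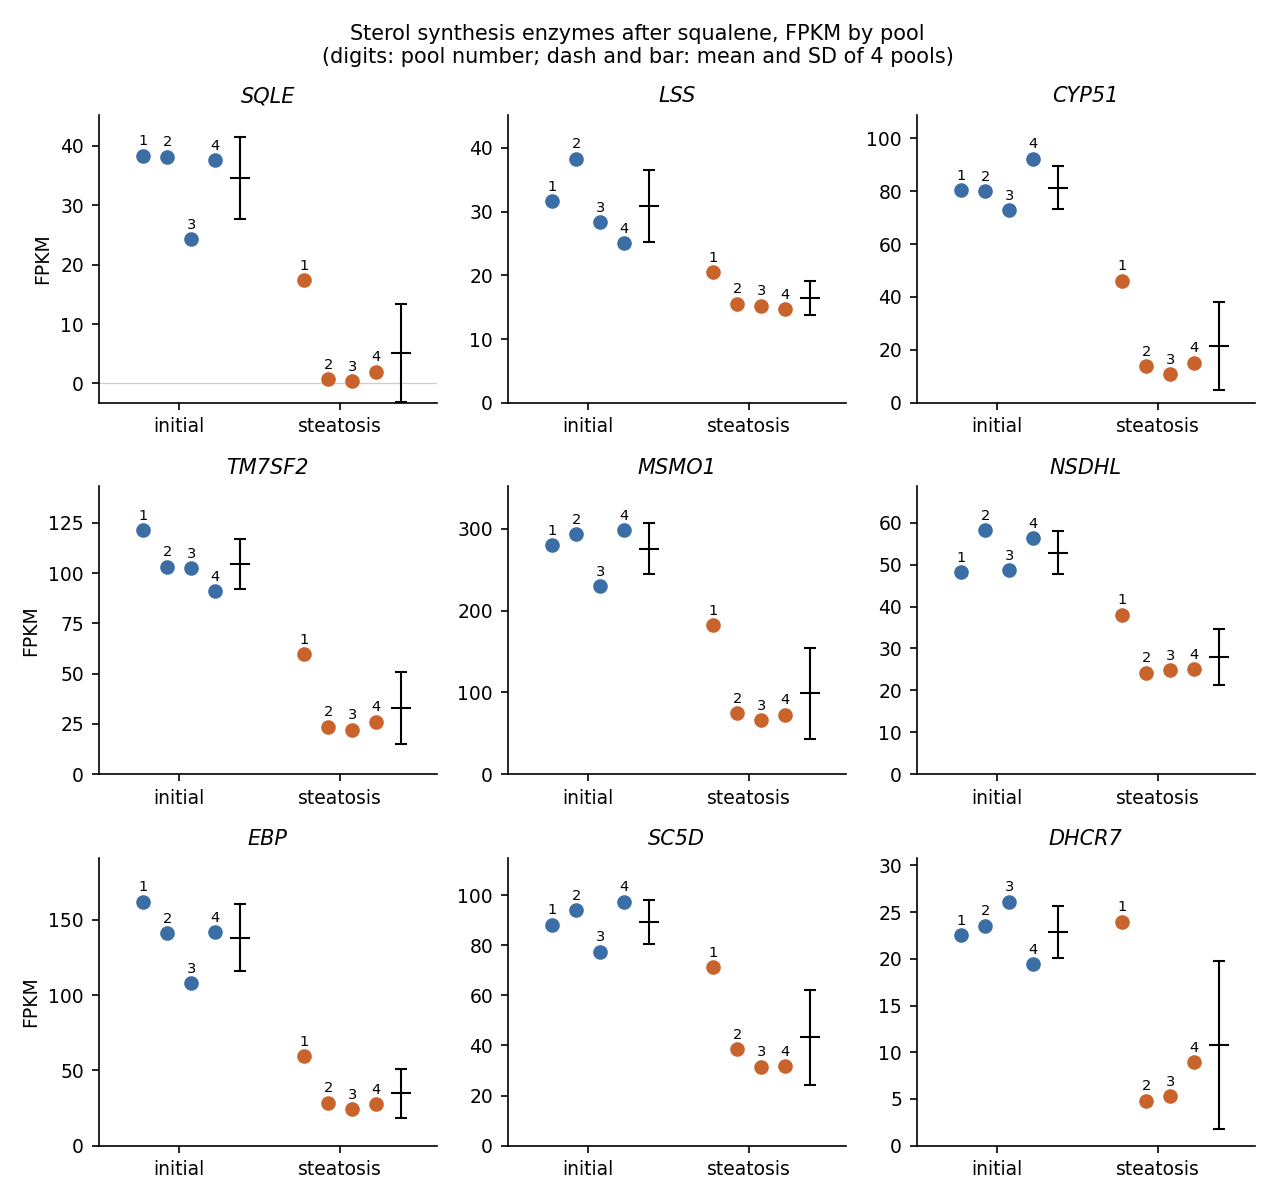
FPKM of the 9 enzymes in each pool, with a linear axis for each gene; blue points are the 4 initial pools, orange points the 4 steatosis pools, digits are pool numbers, and the dash with its bar is the mean with the SD (n = 4). Steatosis pool 1 is the highest steatosis point in all 9 panels, and only in DHCR7, where it stood at 24.0 FPKM, does it lie among the initial pools.

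SQLE, squalene epoxidase, is the first enzyme of the pathway that needs molecular oxygen and is a rate-controlling step. Its gene lies on chromosome 4 of Sscrofa11.1 at chr4:14669789-14700152. It stood at 38.3, 38.2, 24.3 and 37.6 FPKM in initial pools 1 to 4. In steatosis it stood at 17.4 FPKM in pool 1 and at 0.67, 0.38 and 2.01 FPKM in pools 2, 3 and 4. Pool 1 thus lay below the lowest initial pool but far above the other 3 steatosis pools. From the FPKM step, the lowest value amounts to about 18 fragments, so it is not a zero but is known less well than the other values. The mean fell from 34.6 ± 6.89 to 5.12 ± 8.24 FPKM (SD, n = 4), and the log2 fold change was -4.15 ± 0.91 (SE, limma adjusted p = 0.00881). In the ranking of all genes tested by log2 fold change it was number 2 from the bottom. The call on p was near its limit: with 1 pool left out in turn the limma adjusted p was under 0.01 in 1 of 8 fits, the one without steatosis pool 1, and reached 0.0270 at most.

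LSS, lanosterol synthase, forms the first sterol. It was measured at 31.7, 38.3, 28.4 and 25.1 FPKM in the initial pools and at 20.5, 15.6, 15.3 and 14.7 in steatosis. The groups did not overlap (two-sided exact permutation p = 0.0286, the smallest that 4 against 4 allows), yet its estimated change was the smallest of the 9, with a log2 fold change of -0.89 ± 0.15 (SE, limma adjusted p = 0.00245). NSDHL was close to it at -0.93 ± 0.15 (SE), and without initial pool 4 the order was reversed, with LSS at -0.99 and NSDHL at -0.90. The step next to the enzyme with the largest estimated change was therefore among those with the smallest. The annotation used here places LSS on no chromosome.

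CYP51, TM7SF2, MSMO1 and NSDHL act on lanosterol and remove its extra methyl groups. CYP51, a cytochrome P450 and lanosterol demethylase (chr9:72057506-72079587), stood at 80.4, 80.0, 72.7 and 92.2 FPKM in the initial pools. It was at 46.2 FPKM in steatosis pool 1 and at 13.8, 10.8 and 15.2 in pools 2, 3 and 4. The log2 fold change was -2.16 ± 0.37 (SE, limma adjusted p = 0.00268), the largest estimate of the 9 after SQLE. EBP was close to it at -2.06 ± 0.26 (SE). By group means the order was the other way, with steatosis at 26.4% of the initial mean for CYP51 and at 25.3% for EBP. TM7SF2, a sterol reductase of the endoplasmic reticulum that reduces the double bond CYP51 leaves (chr2:7076778-7081502), went from 121, 103, 102 and 91.0 FPKM to 59.6, 23.7, 22.1 and 26.2. Its log2 fold change of -1.79 ± 0.28 (SE) kept a limma adjusted p under 0.01 in all 8 fits with 1 pool left out.

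MSMO1, the methylsterol oxidase that starts the removal of the methyl groups next to the ring hydroxyl, had the highest level of the 9 in all 8 libraries. It stood at 279.9, 294, 230.25 and 299 FPKM in the initial pools and at 182, 74.7, 66.3 and 73.1 in steatosis (chr8:43726834-43745784). Even in steatosis pools 2 to 4 it was far above the other enzymes, and its log2 fold change was -1.60 ± 0.28 (SE, limma adjusted p = 0.00297). NSDHL, the dehydrogenase that follows MSMO1 in the same reaction sequence (chrX:123906130-123921935), changed less. Its levels were 48.2, 58.2, 48.7 and 56.3 FPKM before the diet and 38.0, 24.3, 24.8 and 25.1 FPKM after it, with a log2 fold change of -0.93 ± 0.15 (SE, limma adjusted p = 0.00193). Both are thus lower without overlap of the groups, with a smaller difference in NSDHL. HSD17B7, the ketoreductase that completes the same sequence and is not among the 9, was not called: it stood at 38.5, 31.3, 24.5 and 24.0 FPKM initially and at 35.6, 13.6, 18.1 and 16.2 in steatosis (log2 fold change -0.58, limma adjusted p = 0.143, and 0.0403 with the pool number as a block).

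EBP, SC5D and DHCR7 finish the molecule. EBP is the sterol isomerase that shifts a ring double bond (chrX:42670592-42678571). It stood at 162, 141, 108 and 142 FPKM initially and at 59.2, 28.6, 24.3 and 27.6 in steatosis. It had the lowest adjusted p of the 9, with a log2 fold change of -2.06 ± 0.26 (SE, limma adjusted p = 0.000489), and in each fit with 1 pool left out the adjusted p was at most 0.00251. EBP was also the enzyme in which steatosis pool 1 was lowest relative to the initial state, at 42.9% of the initial mean.

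SC5D, the desaturase that acts on the product of EBP (chr9:48357115-48372391), stood at 88.2, 94.0, 77.5 and 97.4 FPKM initially. In steatosis its levels were 71.3, 38.6, 31.5 and 31.8 FPKM, so that pool 1 lay just under the lowest initial pool. The log2 fold change was -1.12 ± 0.23 (SE, limma adjusted p = 0.00673). With 1 pool left out in turn SC5D kept an adjusted p under 0.01 in 1 of 8 fits, without steatosis pool 1, and the highest adjusted p was 0.0218.

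DHCR7, the reductase of the last step to cholesterol in this branch (chr2:2377352-2391846), was the least certain of the 9. It stood at 22.6, 23.6, 26.1 and 19.4 FPKM initially, and at 24.0 FPKM in steatosis pool 1 against 4.82, 5.27 and 8.92 in pools 2, 3 and 4. Pool 1 therefore lay within the initial range and the other 3 pools lay well below it. The log2 fold change was -1.40 ± 0.42 (SE, limma adjusted p = 0.0342), and the two-sided exact permutation p was 0.114. Its adjusted p stayed under 0.05 in 1 of 8 fits with 1 pool left out, again the one without steatosis pool 1, where it was 0.000703.

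Steatosis pool 1 was the highest of the 4 steatosis pools for all 9 enzymes, which held for 28% of all genes tested and for 22 of the 44 genes called lower. As a share of the initial mean it ran from 42.9% (EBP) to 104.6% (DHCR7), with SQLE at 50.4%, CYP51 at 56.8%, TM7SF2 at 57.1%, MSMO1 at 66.1%, LSS at 66.5%, NSDHL at 72.0% and SC5D at 79.8%. The other 3 pools together ran from 2.95% (SQLE) to 49.2% (LSS). The distance between pool 1 and the rest differed by enzyme: pool 1 was 17.1 times the mean of pools 2 to 4 for SQLE, 3.78 times for DHCR7, 3.48 times for CYP51 and 1.35 times for LSS. Summed over the 9 enzymes, the initial pools held 718 to 873 FPKM, steatosis pool 1 held 518 and pools 2, 3 and 4 held 225, 201 and 225. How close pools 2 to 4 were to each other differed by enzyme, with SDs of 0.43 FPKM around 24.7 for NSDHL, 4.43 around 71.3 for MSMO1, 2.25 around 6.34 for DHCR7 and 0.87 around 1.02 for SQLE (n = 3).

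Other measures of steatosis pool 1 were as follows. Its depth was 91.8% of the deepest library. Its hepatocyte markers summed to 59709 FPKM and its 10 macrophage markers to 1150 FPKM, the latter the lowest of the steatosis pools. The 7 stellate cell markers summed to 228 FPKM and the 4 matched cholangiocyte markers to 18.6, against 313 and 18.5 in pool 4 and against 115 and 7.57 in pool 2. The red blood cell markers summed to 428 FPKM, against 137 to 196 in the other 3. The stellate and cholangiocyte sums of pool 3 were 121 and 7.89 FPKM. The 9 enzymes summed to 518, 225, 201 and 225 FPKM in steatosis pools 1 to 4. The part of these cells in the enzyme levels was not tested.

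Without steatosis pool 1 all 9 enzymes were called lower, while 0.334% of all genes were called lower, the same share as with it. Their median log2 fold change was then -1.94. SQLE reached -5.21 ± 0.43, CYP51 -2.62 ± 0.14, EBP -2.35 ± 0.14 and TM7SF2 -2.11 ± 0.12 (SE). LSS was just past the limit on size at -1.002 ± 0.14. DHCR7 moved from -1.40 to -1.88 ± 0.21. Without pool 1 of both groups 8 were called, all but LSS, against 0.364% of all genes. Without initial pool 1, the pool with muscle and stomach transcripts, 4 were called (CYP51, TM7SF2, MSMO1 and EBP), against 0.304% of all genes.

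**Figure D2:**
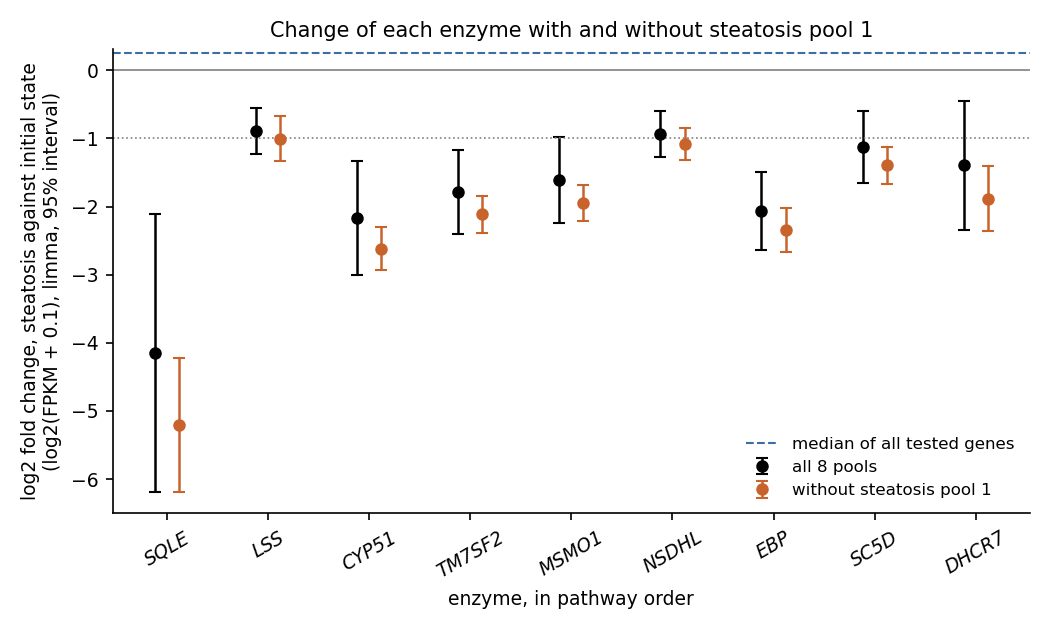
Log2 fold change of each enzyme in pathway order, steatosis against the initial state, with its 95% interval from limma; black points use all 8 pools, orange points leave out steatosis pool 1, the dotted line marks -1 and the dashed line the median of all genes tested (0.25). The intervals shorten and every point moves down without pool 1, most for SQLE, from -4.15 to -5.21.

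The initial pools also differed among themselves. Pool 3 was the lowest initial pool for 5 of the 9 enzymes (SQLE, CYP51, MSMO1, EBP and SC5D), which held for 13.5% of all genes, and it was the highest for DHCR7. The same pool had the highest red blood cell markers, 1294 FPKM against 263 to 553 in the other initial pools, and the part of blood in this difference was not tested. The spread over the initial pools, as a coefficient of variation, ran from 9.76% (NSDHL) to 19.9% (SQLE).

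Levels per length kept much of their order before the diet and changed it after. In the initial state MSMO1 was followed by EBP in all 4 pools, and the mean levels ran on through TM7SF2 (104 FPKM), SC5D (89.3), CYP51 (81.3), NSDHL (52.8), SQLE (34.6), LSS (30.9) and DHCR7 (22.9). The ranges of EBP and TM7SF2, of TM7SF2 and SC5D, of SC5D and CYP51, of SQLE and LSS and of LSS and DHCR7 overlapped across the pools. Within each pool EBP was above TM7SF2, SC5D above CYP51 and LSS above DHCR7 in all 4, while TM7SF2 was above SC5D in 3 of 4 and SQLE above LSS in 2 of 4, so the order of these last neighbours was not settled. In steatosis MSMO1 was followed by SC5D in all 4 pools and SQLE was the lowest of the 9 in all 4. The mean levels there were 99.0 FPKM for MSMO1, 43.3 for SC5D, 34.9 for EBP, 32.9 for TM7SF2, 28.0 for NSDHL, 21.5 for CYP51, 16.5 for LSS, 10.7 for DHCR7 and 5.12 for SQLE, and the ranges of all neighbours in that order overlapped across the pools. Within each pool the order held in all 4 for MSMO1 over SC5D, SC5D over EBP and DHCR7 over SQLE, and in 2 or 3 of 4 for the other neighbours.

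The ratio of each enzyme to the one before it was compared within each library, a measure that scaling between libraries cannot move. Of the 8 ratios 3 did not overlap between the groups. The log2 ratio of LSS to SQLE was -0.28, 0.00, 0.22 and -0.58 in the initial pools and 0.23, 4.35, 5.0 and 2.81 in steatosis. It was 3.25 higher in steatosis on average, and 2.52 higher with pseudocount 1, although steatosis pool 1 (0.23) lay next to the highest initial pool (0.22). The ratio of SC5D to EBP separated the groups most evenly, from between -0.88 and -0.48 to between 0.21 and 0.43, with steatosis pool 1 (0.27) inside the range of the other steatosis pools. The ratio of EBP to NSDHL went the other way, from between 1.15 and 1.75 to between -0.03 and 0.64.

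By the two-sided exact permutation test each of these 3 ratios had p = 0.0286, and after adjustment over the 8 ratios p = 0.0762, so 0 of the 8 passed an adjusted p of 0.05. At an unadjusted p under 0.05 the count was 3. The ratios of CYP51 to LSS (difference of -1.27 in log2) and of NSDHL to MSMO1 (0.67) each had an exact permutation p of 0.0571, and in both steatosis pool 1 lay in the initial range. For TM7SF2 to CYP51 (0.38), MSMO1 to TM7SF2 (0.18) and DHCR7 to SC5D (-0.27) the groups overlapped, with exact permutation p values of 0.0857, 0.286 and 0.457. Without steatosis pool 1 the count past an adjusted p of 0.05 went from 0 to 5 of 8: LSS to SQLE (difference of 4.21), CYP51 to LSS (-1.61), NSDHL to MSMO1 (0.86), EBP to NSDHL (-1.26) and SC5D to EBP (0.96). Each of these 5 then had an exact permutation p of 0.0286, the smallest that 4 against 3 allows, and 0.0457 after adjustment over the 8 ratios. The 3 ratios without overlap had this same exact p with all pools. At the smallest p the adjusted p depends only on how many of the 8 ratios reach it. With 3 it was 0.0762 and with 5 it was 0.0457, and fewer than 5 could not pass. The move from 0 to 5 is therefore not a measure of how far each ratio changed.

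**Figure D3:**
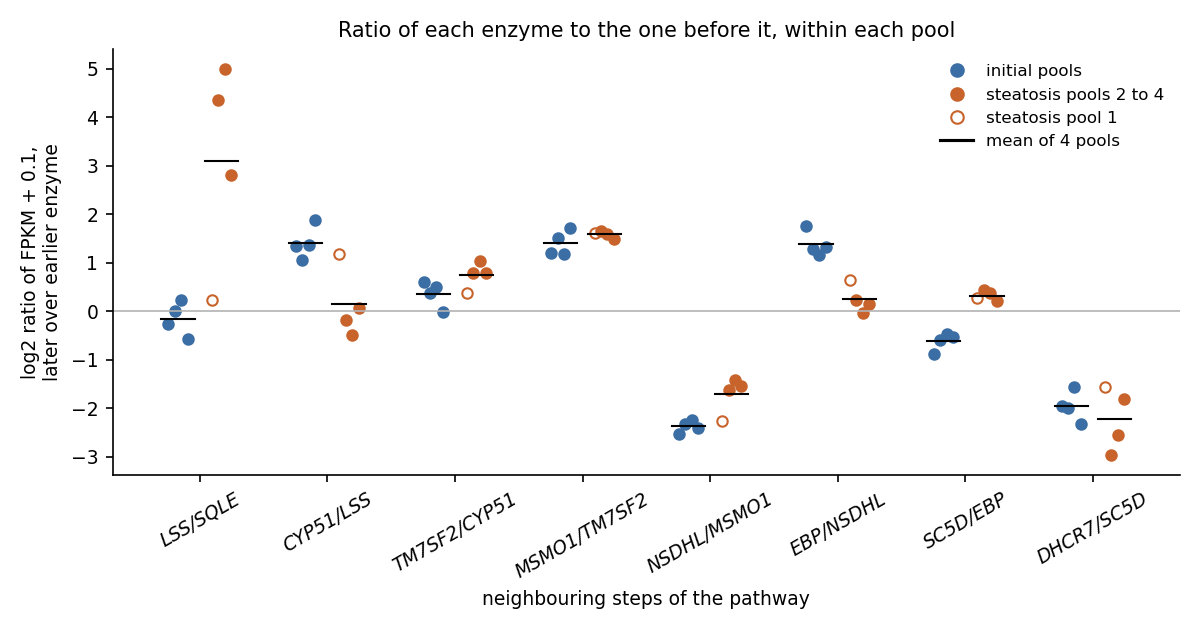
Log2 ratio of FPKM + 0.1 of each enzyme over the one before it, within each pool; blue points are the initial pools, filled orange points steatosis pools 2 to 4, the open orange point steatosis pool 1 and the black bar the mean of 4 pools. SC5D/EBP and EBP/NSDHL separate the groups with pool 1 included, while for LSS/SQLE pool 1 (0.23) is beside the initial pools.

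The steps that lead to squalene were lower too. Of 9 genes measured from ACAT2 to FDFT1, 5 were called lower and 0 higher, and 8 of 9 had a limma adjusted p under 0.05, all lower. Their median log2 fold change was -1.33. HMGCS1, which makes HMG-CoA, had a log2 fold change of -2.44 (limma adjusted p = 0.00903), and IDI1, the isomerase of the isoprene units, -3.09 (adjusted p = 0.00906, and 0.0105 under median-ratio scaling). FDFT1, which forms squalene itself, changed by -0.61 (adjusted p = 0.0189). GGPS1, at a branch away from sterols, was the 1 gene past neither limit, at 0.16 (adjusted p = 0.446), and at -0.10 under median-ratio scaling. Steatosis pool 1 was again the highest steatosis pool, for 8 of 9 genes, at 58.3% to 101.4% of the initial mean.

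**Figure D4:**
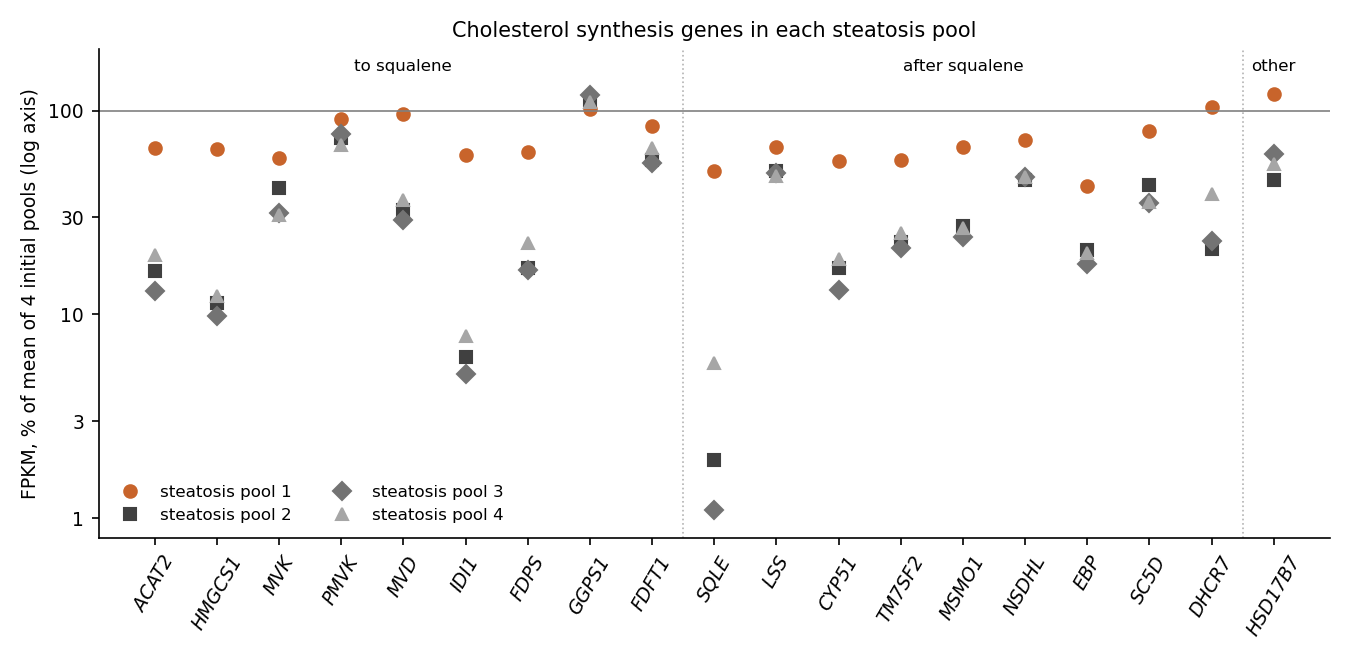
Level of each cholesterol synthesis gene in the 4 steatosis pools, as a percentage of its mean over the 4 initial pools, on a log axis; genes run from ACAT2 to DHCR7 in pathway order, followed by HSD17B7. Pool 1 (orange) lies above pools 2 to 4 (grey) for all 9 enzymes after squalene and for 8 of the 9 genes before it, and SQLE and IDI1 are the lowest points, with means over pools 2 to 4 of 2.95% and 6.37%.

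Of 4 other genes for steps after squalene 0 were called lower and 1 higher by limma. At an adjusted p under 0.05 the counts were also 0 and 1, where 26.7% of all genes were higher. LBR, the nuclear envelope protein with the same reductase activity as TM7SF2, was at 3.54 to 4.74 FPKM initially and 3.31 to 4.75 in steatosis (log2 fold change -0.02, limma adjusted p = 0.930). The gene called higher was FAXDC2, a relative of MSMO1 by sequence, at 1.46 (adjusted p = 0.00900, and 0.0406 under median-ratio scaling, where it was not called).

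CYP51, SQLE and SC5D draw electrons from small carriers of the endoplasmic reticulum. Of 6 genes listed for electron supply and the scaffold, not all of them of the endoplasmic reticulum, 0 were called by limma. At an adjusted p under 0.05 there were 2 lower and 2 higher, where 2.28% of all genes were lower and 26.7% were higher. POR, the reductase that serves cytochromes P450 and SQLE, was higher at 0.67 (limma adjusted p = 0.00169), and CYB5A was higher at 0.51 (adjusted p = 0.0107, and 0.325 under median-ratio scaling). CYB5B, at -0.56, and PGRMC1, at -0.38, were lower with adjusted p values of 0.0402 and 0.0364. The gene described as like CYB5R3, the reductase of cytochrome b5, had a log2 fold change of -0.18 (adjusted p = 0.181, and 0.0232 under median-ratio scaling).

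Among 8 genes of the SREBP system 0 were called lower and 1 higher. At an adjusted p under 0.05 there were 3 lower and 1 higher, where 2.28% of all genes were lower and 26.7% were higher. At an unadjusted p under 0.05 there were 3 lower and 3 higher, counts with no share over all genes beside them. SREBF2, which encodes SREBP2, stood at 18.1 to 22.7 FPKM initially and, in steatosis, at 19.0 in pool 1 and 10.3 to 13.1 in the others (log2 fold change -0.62, limma adjusted p = 0.0290). INSIG1 ranged from 42.8 to 222 FPKM initially, the highest value being in the pool with muscle transcripts, and from 19.7 to 47.7 in steatosis (-1.77, adjusted p = 0.0175, and 0.000636 with the pool number as a block, which makes it a call). STARD4, a sterol carrier, was at -0.46 (adjusted p = 0.0329). SREBF1, whose main hepatic product drives fatty acid synthesis, was the gene called higher, at 1.70 (adjusted p = 0.00454, and 0.0112 under median-ratio scaling).

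Of 6 genes for the degradation of sterol enzymes in the endoplasmic reticulum 0 were called in the limma fit. At an unadjusted p under 0.05 there were 1 lower and 1 higher, with no share over all genes beside them. RNF145 was the 1 gene higher at an adjusted p under 0.05 (0.62, adjusted p = 0.00244), where 26.7% of all genes were higher. MARCHF6, the ubiquitin ligase known to act on SQLE protein, was at 0.09 (adjusted p = 0.553) and at -0.18 under median-ratio scaling. Of 7 targets of the oxysterol receptor LXR, 3 were called higher and 0 lower, where 6.01% of all genes were called higher. The 3 were ABCA1 and ABCG1, which export cholesterol from cells, at 1.69 and 2.30, and ABCG5, part of the exporter into bile, at 1.17. At an adjusted p under 0.05 there were 6 of the 7 higher and 0 lower, where 26.7% of all genes were higher. ABCG5 was not a call under median-ratio scaling, at 0.90, and its partner ABCG8 was at 0.13 (limma adjusted p = 0.658) and at -0.14 under that scaling.

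Genes outside these lists were ranked by how closely their 8 log2 values, each relative to the gene's own initial mean, followed the mean profile of the 9 enzymes. The 5 closest were MT-2B, MMAB, RDH11, MT1A and ROGDI, with root mean square differences of 0.31, 0.46, 0.48, 0.48 and 0.48 log2 units over the 8 libraries. Among the 9 themselves the same distance ran from 0.14 (TM7SF2) to 1.92 (SQLE). MT-2B, a metallothionein, fell from between 3754 and 6282 FPKM to 2395 in steatosis pool 1 and to between 1141 and 1530 in the others. Metallothionein genes are near copies of each other and can share reads, so the values of MT-2B and MT1A are uncertain. RDH11, a retinol dehydrogenase, had its highest steatosis value in pool 2 (82.4 FPKM), next to 78.6 in pool 1.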

How the data were processed

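Liver RNA of 8 pools was compared, 4 of the initial state and 4 of steatosis, grouped by the labels. The authors filtered the reads, mapped them with HISAT2 2.0.4 to Sus scrofa 11.1, assembled transcripts with StringTie, and estimated expression with Bowtie2 2.2.5 and RSEM 1.2.12 (tools and versions as in the submitters' processing notes). The deposited values are FPKM, with no scaling between libraries stated. The deposited comparisons of single pools, made by the authors with a Poisson method, hold fold changes and error rates that were not used. Only their transcript lengths were read. Files with counts were not used here, so depth and counting error could be judged only by the smallest difference between low values of genes 600 to 900 bp long, and precision is the SD between pools.

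Genes with at least 0.3 FPKM in 4 of 8 libraries (13175) were transformed to log2(FPKM + 0.1). They were fitted by group alone in limma 3.58.1 (R 4.3.3), its empirical Bayes step allowing for a trend with the mean, and p values were adjusted over all of them after Benjamini-Hochberg. All log2 fold changes are on that scale, which understates changes of low genes. Single genes and ratios were compared by two-sided exact permutation tests, whose smallest p is 0.0286 with 4 against 4. The rest was computed with scipy 1.17.1, pandas 2.3.3 and numpy 2.4.6 under Python 3.11.15 and plotted with matplotlib 3.10.9. The fit and the permutation test were tested on simulated data.

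Pools with the same number were treated as paired in the alternative with a block: deviations from the group means correlated at 0.16, 0.35, 0.32 and 0.25 between pools 1 to 4 of both groups. The p values measure the spread between pools.

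The members and the 16 gene lists were chosen with earlier results of these data known. The genes named are the 9 enzymes, 13 other genes chosen by role, and the 5 genes most like the mean profile. Genes given to spell out a count were named after their values were seen: FAXDC2, CYB5A, CYB5B, PGRMC1, SREBF1, STARD4, RNF145, ABCG1, GGPS1, FGB and TF. IDI1, CYB5R3 and 3 others were matched by description, KRT7 and MB were not matched, and coordinates are those of RefSeq on Sscrofa11.1. A few further genes of these lists are not reported here and are left out of their counts. Promoter and protein sequences were not used here.

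Alternatives were another filter, pseudocount 1, 3 scalings, no trend, the replicate block, and leaving out pools.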

Additional observations from a re-analysis of the deposited data

Results flagged for a closer look

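In each group of 4 pools the highest and lowest value was compared with the rest for 60 groups, and 13 values stood far from the other 3 by Dixon's test. The 60 groups did not hold every gene named in this report. PGRMC1, FAXDC2 and MMAB were not among these groups, so the absence of a flag says nothing about them. Their steatosis values were also highest in pool 1. These were 580.68, 14.89 and 17.06 FPKM, against at most 493.03, 7.42 and 6.2 in the other steatosis pools. Chance flags about 1 in 20 groups. Steatosis pool 1 gave 10 of the 13, each time as the highest value: SQLE at 17.43 FPKM, LSS at 20.51, CYP51 at 46.19, TM7SF2 at 59.63, MSMO1 at 182.12, NSDHL at 38.01, EBP at 59.24, HMGCS1 at 20.54, IDI1 at 61.95 and INSIG1 at 47.7. All 10 come from 1 library and are not independent of each other. SC5D and DHCR7 were also highest in that pool, without passing the test.

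The other 3 were SQLE at 24.27 FPKM in initial pool 3, the lowest of its group, LBR at 4.74 in initial pool 2, the highest, and ABCG5 at 9.59 in steatosis pool 3, the lowest.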

How the results depend on the processing

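Over 17 alternatives each of the 9 enzymes kept a negative log2 fold change (153 of 153 values), and 145 of 153 kept their side of an adjusted p of 0.05. The other 8 were all of DHCR7, which stayed under 0.05 in 9 of 17. The count of enzymes called lower, 6, was 6 with the replicate block, with pseudocount 1, with the stricter filter and with a common sum, 7 under median-ratio or upper-quartile scaling, and 4 with no filter or no trend. Leaving out 1 pool gave 2 to 9: 2 without steatosis pool 2 (TM7SF2 and EBP), 3 without initial pool 2, initial pool 4 or steatosis pool 4 (CYP51, TM7SF2 and EBP each time), and 9 without steatosis pool 1. The cause was not tested, although each such fit has 1 library fewer. Over all genes tested the number called lower moved too, from 44 in the main fit. It was 83 and 73 under median-ratio and upper-quartile scaling, 36 with no trend, and 37 of 18103 with no filter. Without steatosis pools 1, 2 and 4 in turn it was 44, 28 and 26. Without initial pools 2 and 4 in turn it was 30 and 50. The number called higher was 792 in the main fit and 411 and 439 under those 2 scalings. At an adjusted p under 0.05 the count was 8 or 9 throughout, and the replicate block kept 9. Of the 40 other pathway genes 10 were called, 11 with the replicate block (INSIG1 added; at an adjusted p under 0.05 the block also moved HSD17B7, and no other gene named), 6 with no filter, no trend, median-ratio or upper-quartile scaling, and 4 to 10 with 1 pool left out (4 without steatosis pool 2, 3 or 4, 5 without initial pool 4, 6 without initial pool 1 or 2). Of the 8 ratios 0 passed an adjusted p of 0.05, and 0 to 5 did with 1 pool left out by the exact permutation test: 5 without steatosis pool 1 and 0 without any other. Because of the smallest exact p, fewer than 5 could not pass in any of these fits. Without pool 1 of both groups and with the replicate block the smallest exact p, 0.1 and 0.125, could not pass. Depth limits SQLE in steatosis pools 2 to 4 most.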
